A study of Mus musculus with 4 samples.

Results

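Skeletal muscle contracts through the sarcomere, in which myosin heavy and light chains pull on actin filaments that carry the troponins and tropomyosin. The signal to contract runs from the voltage sensor of the surface membrane to the ryanodine receptor, which releases calcium from the sarcoplasmic reticulum, and calcium pumps return it there. Fast and slow muscle fibres use different genes for many of these proteins. A list of 44 such genes was followed in the transcriptome of the mouse mammary gland, a tissue that is not itself skeletal muscle. All 44 were found by gene name among the 22479 named entries of the deposited expression table. They comprised 15 fast isoforms, 9 slow isoforms and 20 other members.

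Poly(A) RNA was sequenced from mammary glands of 4 mice aged 2 months, 2 miR-21+/+ and 2 miR-21-/-, all of the mixed strain 129SV::FVB/N::C57BL/6. The latter lack the microRNA miR-21, and the labels name no tissue to which the deletion was restricted. The values are FPKM, fragments normalised to exon length and to the number of mapped fragments, so levels can be compared between genes. The table holds a single FPKM value per genotype that combines both mice, so the spread between mice is not visible, no test across mice was possible, and every difference given here is a description of these libraries. Differences are log2 ratios of the miR-21-/- value to the miR-21+/+ value without a pseudocount. In such tissue RNA, more muscle fibres in the piece sampled and more RNA per fibre cannot be told apart. Mir21 and its host gene Vmp1 form a single entry of the table, at 42.5 FPKM in miR-21+/+ against 68.2 FPKM in miR-21-/- glands, and this host transcript does not measure the mature microRNA, so it does not check the genotypes.

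Although the table has no read counts, the worth of a single read could be estimated from its lowest values. Among the 500 named loci with the lowest mean FPKM above 0 in both genotypes, 15 shared a ratio of 1.21 between the genotypes, and the next most common ratio was found at 7 loci. The shared ratio was taken as that of 1 read in each genotype. For 7 of these 15 loci with a single annotated transcript, a read on a transcript of 1 kilobase was worth a median of 0.0204 FPKM in miR-21+/+ against 0.0247 FPKM in miR-21-/- glands, which implies about 49100000 and 40600000 fragments. From this step, approximate read numbers were derived for each member with the length of its annotated coding transcript. They cover both mice of a genotype together, and the 95% exact intervals of fold differences made from them cover counting error only, not the difference between mice.

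All 44 members were higher in miR-21-/- glands. The ratio was 2-fold or more for 15 of them, between 1.5-fold and 2-fold for 25 and under 1.5-fold for the remaining 4, namely Myl1, Mylpf, Myom1 and Tpm3. The lowest ratio, that of Tpm3, exceeded those of 63.1% of named loci with a mean above 1 FPKM, and the next, that of Myl1, 91.5%. These counts include members at all levels, whereas shares of all loci are given only above 1 FPKM. The members together held 0.565% of the FPKM of named loci in miR-21+/+ against 0.987% in miR-21-/- glands. Of the members, 38 had a mean above 1 FPKM over both genotypes, and their median log2 ratio was 0.79, against −0.03 for all 13063 named loci above this level. At 1.5-fold or more, 34 of the 38 were higher, compared with 4.99% of all loci, and at 2-fold or more 10 of the 38 were higher, compared with 1.71%. Of these 10, the 4 genes Myl2, Tnnc1, Tnnt1 and Actn2 were under 1 FPKM in miR-21+/+ glands and passed the minimum only through their miR-21-/- value, so their presence among the 38 is not independent of their ratio. None was at least 2-fold lower, compared with 2.14% of all loci. Setting both FPKM columns to equal sums over all loci shifts each log2 ratio by −0.63, and 39 of the 44 members were then still higher, 12 of the 15 fast and all 9 slow isoforms among them, while the median of all loci was −0.66. The 5 members that turned direction under this scaling were the fast isoforms Myl1, Mylpf and Pvalb, the M-band protein gene Myom1, and Tpm3.

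**Figure D1:**
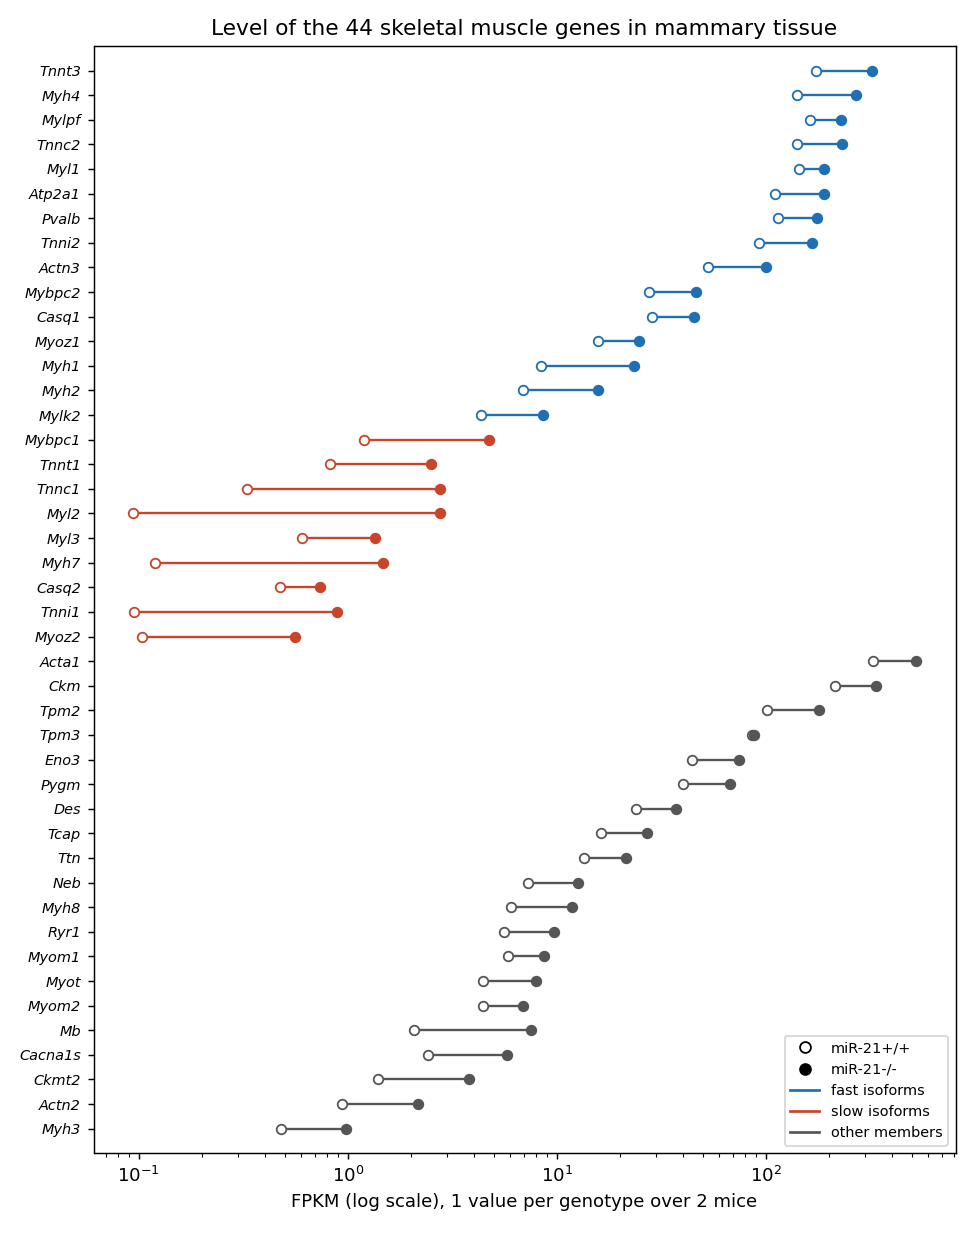
FPKM of the 44 members on a log axis, with an open point for miR-21+/+ and a filled point for miR-21-/- glands, 1 value per genotype over 2 mice, coloured as fast isoforms, slow isoforms and other members. Every filled point lies to the right of its open point, the fast isoforms lie between 4.35 and 322 FPKM, and the slow isoforms lie between 0.0936 and 4.74 FPKM, among them the longest distances between the points.

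The fast isoforms were abundant in glands of both genotypes. Their levels ranged from 4.35 to 173 FPKM in miR-21+/+ and from 8.56 to 322 FPKM in miR-21-/- glands, and their log2 ratios from 0.40 to 1.47 with a median of 0.78. Tnnt3, the fast troponin T that ties the troponin complex to tropomyosin, had the highest mean level of the fast list, 173 FPKM in miR-21+/+ against 322 FPKM in miR-21-/- glands, a log2 ratio of 0.89. Tnnc2, the fast troponin C that binds calcium, was at 141 and 231 FPKM, with a ratio of 0.71. Tnni2, the fast inhibitory troponin, was at 92.4 and 167 FPKM, with a ratio of 0.85. On the log2 scale the counting interval of Tnnc2, 0.66 to 0.77, lay below that of Tnnt3, 0.85 to 0.93, and that of Tnni2, 0.79 to 0.92, overlapped the latter.

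The fast light chains showed the smallest ratios of this list. Mylpf, the fast regulatory light chain, was at 164 and 228 FPKM, a log2 ratio of 0.48. Myl1, the fast essential light chain, was at 144 and 190 FPKM, a ratio of 0.40. Mylk2, the skeletal muscle kinase of the regulatory light chain, was far lower in level at 4.35 and 8.56 FPKM but had a ratio of 0.98. Of the fast genes of the thick filament and Z disc, Mybpc2 encodes the fast myosin-binding protein C and was at 27.8 and 46.2 FPKM, Actn3 encodes the fast-fibre alpha-actinin and was at 53.0 and 99.8 FPKM, and Myoz1 encodes a calsarcin of fast fibres and was at 15.7 and 24.9 FPKM. Their log2 ratios were 0.73, 0.91 and 0.66.

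Calcium handling genes of fast fibres were higher by about as much as the fast contractile genes. Atp2a1, the calcium pump of the fast sarcoplasmic reticulum, was at 111 FPKM in miR-21+/+ against 191 FPKM in miR-21-/- glands, a log2 ratio of 0.78. Casq1, the calcium store protein of the reticulum, was at 28.6 and 45.2 FPKM, a ratio of 0.66. Pvalb, the cytosolic calcium buffer parvalbumin, was at 115 and 176 FPKM, a ratio of 0.62. Release of calcium depends on Ryr1, the ryanodine receptor, and Cacna1s, the voltage sensor that opens it, which serve both fibre classes. Ryr1 was at 5.60 and 9.68 FPKM, a ratio of 0.79, in an entry whose comparison the table flags as failed. Cacna1s was at 2.42 and 5.79 FPKM, and its ratio of 1.26 exceeded those of the other calcium genes named here.

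The myosin heavy chain genes set the speed of a fibre, and 5 of the 6 on the list lie side by side in the genome. In the coordinates of mm9, the build used by the authors, Myh3, Myh2, Myh1, Myh4 and Myh8 follow each other on the plus strand of chromosome 11 between 66891802 and 67122135. Myh4, the IIb chain of the fastest fibres, was at 141 FPKM in miR-21+/+ against 269 FPKM in miR-21-/- glands, a log2 ratio of 0.93, and its comparison is flagged as failed in the table. Myh1, the IIx chain, was at 8.44 and 23.4 FPKM with a ratio of 1.47, the highest of the fast list. Myh2, the IIa chain of fast oxidative fibres, was at 6.88 and 15.8 FPKM with a ratio of 1.20.

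The developmental chains of the cluster were detected in both genotypes. Myh8, the perinatal chain, was at 6.05 and 11.9 FPKM, a log2 ratio of 0.97. Myh3, the embryonic chain, was at 0.480 and 0.981 FPKM, a ratio of 1.03. Among the 6 heavy chain genes of the list, Myh4 held 86.5% of the FPKM in miR-21+/+ against 83.4% in miR-21-/- glands. The share of Myh1 was 5.17% and 7.26%, that of Myh2 4.21% and 4.88%, and that of Myh8 3.71% and 3.67%. These genes are near-identical over long stretches, so reads may have been divided between them, and the small shares beside Myh4 are uncertain for that reason.

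The slow isoforms were low in miR-21+/+ glands and differed more between the genotypes than the fast isoforms did. In miR-21+/+ glands 8 of the 9 lay under 1 FPKM, and in miR-21-/- glands 3 did. Their summed FPKM was 3.84 in miR-21+/+ against 17.8 in miR-21-/- glands, a 4.63-fold difference, whereas the sum of the fast isoforms was 1227 and 2038 FPKM, a 1.66-fold difference. The median log2 ratio of the 9 slow isoforms was 2.43, which is 1.64 above the median of the 15 fast isoforms. Of the 9, 7 had a ratio above that of every fast isoform. The highest fast ratio, that of Myh1, itself exceeded those of 99.4% of named loci with a mean above 1 FPKM. For this cut, no share was computed among loci at the lower levels of the slow isoforms. At 4-fold or more, 5 of the 9 slow isoforms and 0 of the 15 fast isoforms were higher. Among all named loci with a mean between 0.3 and 3 FPKM, the range that holds the slow isoforms, 1.3% were at least 4-fold higher. This range was set around the means of the slow isoforms, which include their miR-21-/- values. Myh7, Myl2, Tnni1 and Myoz2 were under 0.3 FPKM in miR-21+/+ glands, so their place in the range is not independent of their ratio. Only 4 slow isoforms, Myl2, Mybpc1, Tnnc1 and Tnnt1, had a mean above 1 FPKM. Because 3 of them, all but Mybpc1, reached it only through their miR-21-/- value, the slow list is described by all 9 members.

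Myl2, the slow regulatory light chain, showed the highest ratio of all members. It was at 0.0936 FPKM in miR-21+/+ against 2.77 FPKM in miR-21-/- glands, a log2 ratio of 4.89. These levels stand for about 3 and 82 reads, so the ratio of 29.6-fold has a counting interval from 10.9-fold to 164-fold. Myl3, the slow essential light chain, was at 0.603 and 1.35 FPKM, a log2 ratio of 1.16 from about 28 and 52 reads. The counting intervals of the slow light chains, 10.9-fold to 164-fold for Myl2 and 1.39-fold to 3.69-fold for Myl3, do not overlap. They leave out the difference between mice.

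Myh7, the slow heavy chain, was at 0.12 FPKM in miR-21+/+ against 1.48 FPKM in miR-21-/- glands, a log2 ratio of 3.63. Its transcript is long, and the values stand for about 36 and 368 reads, with a counting interval of the ratio from 8.77-fold to 17.9-fold. The table merges Myh7 with its neighbour Myh6, the atrial heavy chain, in a locus on chromosome 14 from 55560758 to 55613386, so their reads cannot be separated. Of the other genes known from heart muscle, Tnnt2 was at 0.118 and 0.242 FPKM, Ryr2 at 0.0573 and 0.0533 FPKM, Myl7 at 0.0324 and 0.0320 FPKM and Nppa at 0.0469 and 0.152 FPKM, and Nppb was listed at 0 in both genotypes. Tnni3, in an entry merged with 6030429G01Rik, was at 3.07 and 3.35 FPKM.

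The slow troponins did not all differ by the same amount. Tnnc1, the slow troponin C, was at 0.329 and 2.77 FPKM, a log2 ratio of 3.07 from about 12 and 81 reads. Tnni1, the slow inhibitory troponin, was at 0.0948 and 0.891 FPKM, a ratio of 3.23 from about 3 and 27 reads. Its 9.40-fold ratio has a wide counting interval, from 3.35-fold to 56.1-fold. Tnnt1, the slow troponin T, was at 0.822 and 2.49 FPKM, a log2 ratio of 1.60, and its interval in fold terms ran from 2.09 to 4.39, below that of Tnnc1, which ran from 4.43 to 16.5.

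Mybpc1, the slow myosin-binding protein C, was the most abundant gene of the slow list. It was at 1.2 FPKM in miR-21+/+ against 4.74 FPKM in miR-21-/- glands, a log2 ratio of 1.98 that rests on about 221 and 722 reads. Its ratio of 3.95-fold has a counting interval from 3.39-fold to 4.62-fold, which lies above the highest fast ratio, 2.78-fold for Myh1. Myoz2, the calsarcin of slow and cardiac muscle, was at 0.104 and 0.556 FPKM, a log2 ratio of 2.43 from about 6 and 26 reads. Casq2, the calsequestrin of slow and cardiac muscle, was at 0.472 and 0.738 FPKM, and its log2 ratio of 0.65 was the lowest of the slow list. For 7 of the 9 slow isoforms the lower end of the counting interval was above the median fast ratio of 1.72-fold, and for 5 it was above 2.78-fold. The exceptions to the former were Myl3 and Casq2. Counting intervals were made for the members only, so no share of all loci can be set beside these counts.

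**Figure D2:**
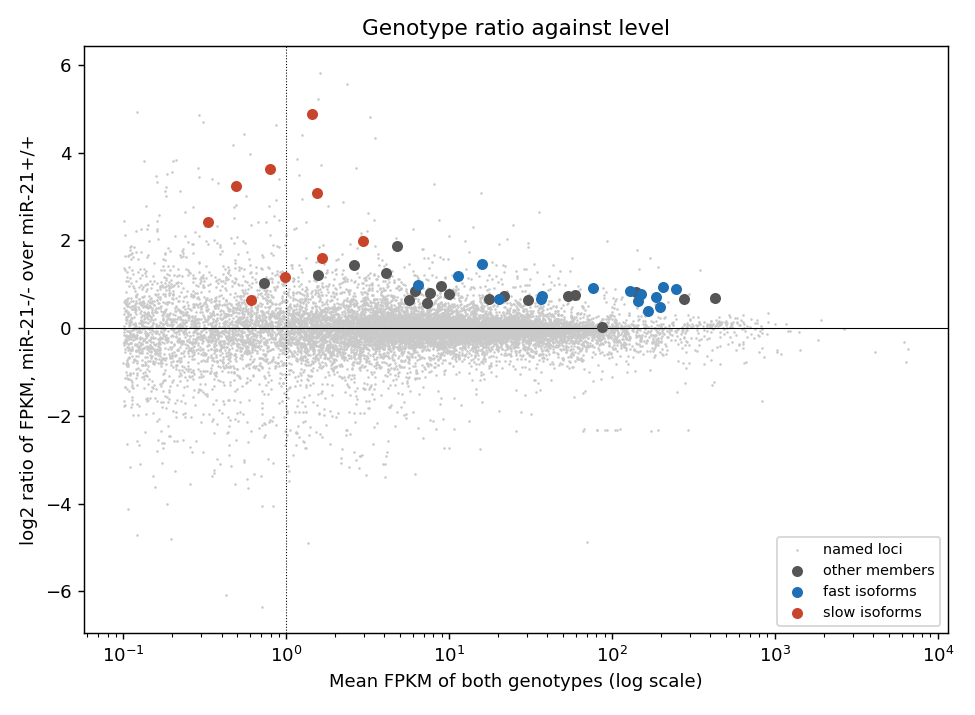
Log2 ratio of FPKM, miR-21-/- over miR-21+/+, against the mean FPKM of both genotypes on a log axis, for named loci with a mean above 0.1 FPKM and values above 0 in both genotypes (grey) and for the fast, slow and other members (coloured), with a dotted line at 1 FPKM. The fast isoforms form a band between 0.40 and 1.47 at high levels, and the slow isoforms lie at low levels, where the grey points spread more widely, between 0.65 and 4.89.

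Because a fast and a slow form exist for the same part of the sarcomere, the slow share within each of 9 pairs was computed from the FPKM of the same genotype. This share does not depend on how the columns are scaled to each other. It was higher in miR-21-/- glands in 8 of the 9 pairs, and the median difference of log2(slow/fast) between the genotypes was 1.77. Pairs were formed for these genes only, so no share over all loci can be set beside this count. The pairs leave out the calcium pumps, with log2 ratios of 0.11 for Atp2a2 of slow fibres and 0.78 for the fast Atp2a1. They also leave out the tropomyosin Tpm3, at 0.04. Atp2a2 and Tpm3 serve most other cells too. The share of Myl2 in the regulatory light chains was 0.0572% in miR-21+/+ against 1.2% in miR-21-/- glands. The share of Myh7 in the adult heavy chains was 0.0764% and 0.477%, that of Tnni1 in troponin I 0.102% and 0.531%, and that of Tnnc1 in troponin C 0.232% and 1.18%. For these 4 pairs the share was at least 5.10-fold higher.

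The other pairs differed less. The share of Myoz2 in the calsarcins was 0.654% and 2.19%, and that of Mybpc1 in myosin-binding protein C was 4.14% and 9.31%, the latter being the highest slow share in both genotypes. The share of Myl3 in the essential light chains was 0.416% and 0.703%, and that of Tnnt1 in troponin T 0.472% and 0.769%. The share of Casq2 in the calsequestrins was 1.62% and 1.61%, so this pair alone did not have a higher slow share in miR-21-/- glands. The fast form thus held most of every pair in both genotypes.

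**Figure D3:**
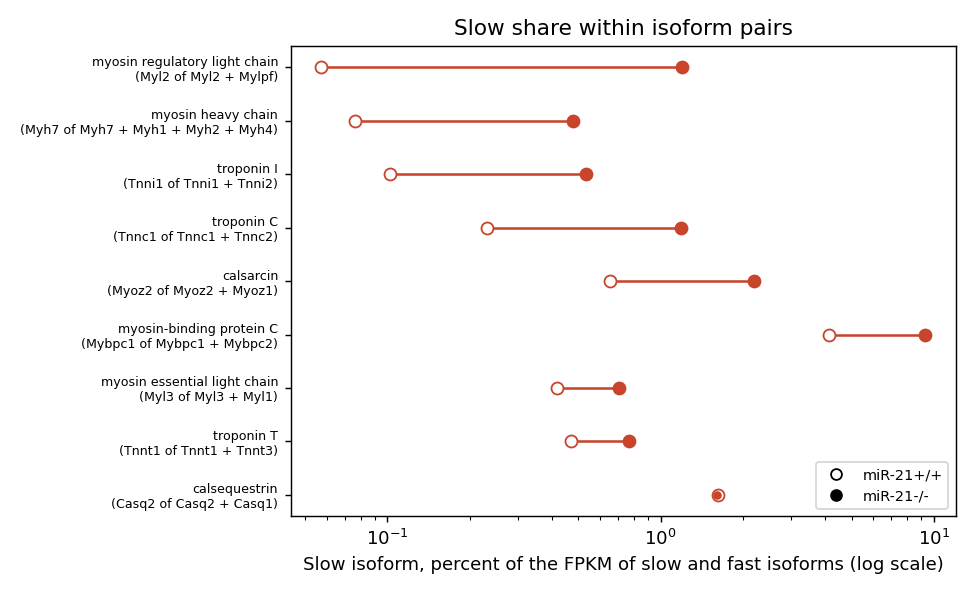
Share of the slow isoform in the summed FPKM of the slow and fast isoforms of 9 pairs, in percent on a log axis, with an open point for miR-21+/+ and a filled point for miR-21-/- glands. The shares run from 0.0572% to 4.14% in miR-21+/+ and from 0.477% to 9.31% in miR-21-/- glands, and the points of the calsequestrin pair coincide.

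The regions upstream of these genes are shown for 2 abundant members and 3 slow isoforms, to set genes with smaller ratios beside genes with high ratios. RefSeq promoters (GRCm38.p6) were at hand for 35 of the 44 members, and the 200 bases before the first start listed of each were searched on both strands. The motifs were the E-box CANNTG, to which myogenic bHLH factors bind, the MEF2 motif, the CArG box bound by serum response factor, and the TATA box TATAAA. Capitals mark the matches, and each sequence runs 5′ to 3′ on the strand of the gene. Acta1 (chr8:123894776-123894975, minus strand) and Myh4 (chr11:67237612-67237811, plus strand) are the actin and the heavy chain with the highest levels. Tnnc1 (chr14:31208112-31208311, plus strand), Myoz2 (chr3:123034988-123035187, minus strand) and Myl2 (chr5:122092524-122092723, plus strand) are slow isoforms.
Acta1: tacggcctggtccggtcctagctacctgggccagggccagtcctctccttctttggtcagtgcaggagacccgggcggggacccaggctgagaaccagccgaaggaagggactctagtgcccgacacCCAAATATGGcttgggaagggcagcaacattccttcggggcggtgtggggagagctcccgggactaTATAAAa
Myh4: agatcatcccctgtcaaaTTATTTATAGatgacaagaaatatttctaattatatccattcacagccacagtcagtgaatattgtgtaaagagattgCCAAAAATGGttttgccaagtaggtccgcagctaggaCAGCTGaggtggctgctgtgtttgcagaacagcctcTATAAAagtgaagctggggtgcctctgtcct
Tnnc1: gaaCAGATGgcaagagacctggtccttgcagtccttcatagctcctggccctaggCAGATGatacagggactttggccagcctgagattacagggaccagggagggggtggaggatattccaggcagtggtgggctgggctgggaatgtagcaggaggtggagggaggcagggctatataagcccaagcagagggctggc
Myoz2: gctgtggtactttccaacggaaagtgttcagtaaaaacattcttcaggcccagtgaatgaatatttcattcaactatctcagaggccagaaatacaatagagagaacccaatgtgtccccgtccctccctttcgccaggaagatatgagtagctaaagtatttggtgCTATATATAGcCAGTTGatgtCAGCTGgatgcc
Myl2: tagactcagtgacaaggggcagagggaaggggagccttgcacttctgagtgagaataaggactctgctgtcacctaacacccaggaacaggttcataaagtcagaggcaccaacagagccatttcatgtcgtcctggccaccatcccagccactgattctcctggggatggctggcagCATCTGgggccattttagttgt

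The Acta1 sequence held a CArG box that begins 73 bases before the start and a TATAAA that begins at 7. Myh4 held all 4 motifs, with a TATAAA beginning at 31, an E-box at 67, a CArG box at 104 and a MEF2 motif at 182 bases before the start. This MEF2 motif overlaps a further TATAAA on the other strand, at 179. Tnnc1 held E-boxes at 197 and 145, Myoz2 held a MEF2 motif at 33 and E-boxes at 22 and 12, and Myl2 held an E-box at 22 bases before the start. An E-box was found in 27 of 35 members (77.1%), in 6 of 10 fast and in 9 of 9 slow isoforms, and in 57.9% of the 27025 promoters searched in the same way. A MEF2 motif was found in 6 of 35 members (17.1%) and in 2.35% of all promoters, and a CArG box in 4 of 35 (11.4%) and in 1.14%. TATAAA was found in 7 of 35 (20%) and in 10.6%. MEF2 motifs stood before 2 fast isoforms (Myh4 and Pvalb) and 2 slow isoforms (Myoz2 and Casq2). A match is a match of letters and does not show that a factor binds there.

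The structural genes that serve both fibre classes followed the fast isoforms in size. Acta1, skeletal alpha-actin of the thin filament, had the highest level of all members, 328 FPKM in miR-21+/+ against 526 FPKM in miR-21-/- glands, a log2 ratio of 0.68. Its sequence is near-identical to those of Acta2 and Actc1, so reads may be shared between these actins. Ttn, the giant protein titin that spans from Z disc to M band, was at 13.5 and 21.5 FPKM, a ratio of 0.67, and a separate row of Ttn at 1.76 and 3.13 FPKM had a ratio of 0.83. Neb, the ruler of the thin filament, was at 7.3 and 12.6 FPKM with a ratio of 0.79. Tcap, the titin cap, was at 16.2 and 26.9 FPKM with a ratio of 0.73.

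The remaining genes of the Z disc and M band were lower in level. Myom1 and Myom2, which link thick filaments at the M band, were at 5.85 and 4.44 FPKM in miR-21+/+ and at 8.73 and 6.89 FPKM in miR-21-/- glands, with log2 ratios of 0.58 and 0.63. Myot, the Z disc protein myotilin, was at 4.42 and 7.98 FPKM, a ratio of 0.85. Actn2, the alpha-actinin found in all striated fibres, was at 0.942 and 2.18 FPKM. Its ratio of 1.21 was higher than that of its fast counterpart Actn3, at 0.91. The counting interval of Actn2 ran from 1.87-fold to 2.87-fold and that of Actn3 from 1.83-fold to 1.94-fold, so the counting intervals overlap.

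Of 5 genes of energy supply and oxygen storage, 3 followed the fast isoforms and 2 differed by more. Ckm, the cytosolic muscle creatine kinase, was at 214 and 338 FPKM, a log2 ratio of 0.66. Eno3, the muscle enolase of glycolysis, was at 44.3 and 74.7 FPKM, and Pygm, the muscle enzyme that breaks down glycogen, at 40.1 and 67.1 FPKM, with ratios of 0.75 and 0.74. Mb, the oxygen store myoglobin of oxidative fibres, was at 2.07 FPKM in miR-21+/+ against 7.54 FPKM in miR-21-/- glands, a ratio of 1.86. Ckmt2, the mitochondrial creatine kinase of striated muscle, was at 1.4 and 3.81 FPKM, a ratio of 1.45. Mb rested on about 98 and 295 reads and Ckmt2 on about 102 and 229. Brown adipocytes can also express both genes, and 6 of 8 brown fat markers above 1 FPKM were lower in miR-21-/- glands as deposited (8 of 8 with equal sums over all loci), Ucp1 at 43.3 and 8.48 FPKM among them. The part of brown adipocytes in the values of Mb and Ckmt2 was not tested.

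Tpm2, Tpm3 and Des are not particular to skeletal muscle. Tpm3, a tropomyosin whose isoforms serve slow fibres and most other cells, was at 85.6 and 87.8 FPKM with a log2 ratio of 0.04, and its entry is merged with Nup210l. Tpm2, the beta-tropomyosin of striated and smooth muscle, was at 101 and 180 FPKM with a ratio of 0.83. Des, the intermediate filament protein desmin of all muscle, was at 24.0 and 37.3 FPKM with a ratio of 0.64. Of the 44 members, Tpm3 had the lowest log2 ratio, followed by Myl1 at 0.40.

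Muscle genes outside the list were mostly higher as well, with a lower median. Of 76 such genes, 74 were in the table and 55 had a mean above 1 FPKM. Of these 55, 51 had the higher value in miR-21-/- glands and 4 the lower, and their median log2 ratio was 0.57, against −0.03 for all loci above this level. At least 2-fold higher were 4, compared with 1.71% of all loci, and at least 2-fold lower were 3, compared with 2.14%. Lmod3 among the former passed the minimum only through its miR-21-/- value, and Mstn among the latter only through its miR-21+/+ value. With equal sums over all loci 24 of the 55 were higher and 31 lower, with a median of −0.06 against −0.66 for all loci. With equal sums over named loci 52 were higher and 3 lower. The median as deposited was 0.60 for 23 genes of the Z disc and sarcomere, 0.52 for 13 genes of the triad and calcium handling, 0.63 for 10 energy genes and 0.26 for 7 genes of the membrane and the neuromuscular synapse. Of the 7 regulator genes, 2 were above 1 FPKM, both lower as deposited, Mef2c with a log2 ratio of −0.02 and Mstn with −1.03. The ratio of Mef2c was thus close to the median of all loci, and with equal sums over named loci 1 of these 2 was higher. Over all 7 genes as deposited 5 were higher and 2 lower, with a median of 0.34.

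Genes beyond 2-fold in these lists went both ways. Nrap, a scaffold of the muscle cell's actin bundles, was at 2.55 and 6.09 FPKM, Lmod3, a nucleator of thin filaments, at 0.723 and 1.63 FPKM, and Trim54, a sarcomere-bound ubiquitin ligase, at 1.45 and 3.02 FPKM. Their log2 ratios were 1.26, 1.17 and 1.06. Actc1, the cardiac alpha-actin that is also made in developing muscle, was lower, at 6.59 FPKM in miR-21+/+ against 2.68 FPKM in miR-21-/- glands, a ratio of −1.30, opposite to Acta1. Fabp3, a fatty acid carrier of heart and muscle, was at 9.76 and 4.52 FPKM, a ratio of −1.11. The part of cells other than muscle in the value of Fabp3 was not tested. Mstn, the growth inhibitor myostatin, was at 1.62 and 0.794 FPKM, a ratio of −1.03. These 3 genes were lower under every scaling tried, as the scaling with the highest upward shift adds 0.10.

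The most abundant triad gene, Atp2a2, is the calcium pump of slow fibres and also of most other cells, and it was at 60.7 and 65.5 FPKM with a log2 ratio of 0.11, unlike the slow isoforms. Pln, the inhibitor of this pump, was at 0.322 and 0.282 FPKM and Sln, a related inhibitor, at 0.279 and 0.0473 FPKM, so neither was higher in miR-21-/- glands. Tmem38a, a channel of the reticulum, was at 8.22 and 13.3 FPKM, and Srl, the reticulum protein sarcalumenin, at 6.25 and 8.95 FPKM. Ldb3 and Fbxo32, a Z disc protein and an atrophy-linked ubiquitin ligase, were at 12.0 and 9.60 FPKM in miR-21+/+ and at 19.7 and 16.1 FPKM in miR-21-/- glands, and Flnc, the muscle filamin, was at 7.15 and 10.3 FPKM. Pgam2 and Pfkm, muscle enzymes of glycolysis, were at 17.5 and 22.6 FPKM in miR-21+/+ and at 33.5 and 32.1 FPKM in miR-21-/- glands, and Ampd1, the muscle AMP deaminase, was at 8.85 and 14.7 FPKM. Dysf, Dmd and Chrnb1 of the membrane and synapse list were at 5.93, 5.39 and 4.98 FPKM in miR-21+/+ and at 6.13, 5.46 and 5.78 FPKM in miR-21-/- glands. The factors that start muscle differentiation were barely detected, with Myod1 at 0.0675 and 0.215 FPKM, Myog at 0.150 and 0.254 FPKM and Pax7 of muscle stem cells at 0.0146 and 0.0185 FPKM, while Myf6 was at 0.848 and 1.02 FPKM and Mef2c at 8.13 and 8.03 FPKM.

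Markers of other cell types also had unequal levels in the same libraries. All 13 markers of smooth muscle and myoepithelium were higher in miR-21-/- glands, from 0.25 to 1.47 with a median log2 ratio of 0.70, and their summed level was 555 FPKM in miR-21+/+ against 878 FPKM in miR-21-/- glands. With equal sums over all loci, which put the median of all loci at −0.66, 7 of these 13 were higher and 6 lower. With equal sums over named loci all 13 were higher. Acta2, the smooth muscle actin, was at 222 and 341 FPKM, Tagln at 90.1 and 156 FPKM and Myl9 at 55.6 and 77.3 FPKM. The median of the smooth muscle and myoepithelial markers as deposited lay close to that of the fast isoforms, 0.78, and below that of the slow isoforms, 2.43. For all loci above 1 FPKM the median was −0.03. Of 7 luminal epithelial markers 6 were higher as deposited and with equal sums over named loci, and 2 with equal sums over all loci. Their summed level was 618 and 836 FPKM. Krt19, Krt18 and Krt8 were at 223, 148 and 119 FPKM in miR-21+/+ and at 247, 216 and 197 FPKM in miR-21-/- glands. Of 6 white fat markers 5 were lower as deposited and with equal sums over all loci, and 4 with equal sums over named loci. Their summed level was 16330 and 12424 FPKM. Fabp4, Cfd and Adipoq were at 7677, 6946 and 1207 FPKM in miR-21+/+ and at 5523, 5547 and 853 FPKM in miR-21-/- glands. The 9 brown fat markers summed to 350.0 and 233 FPKM, with Adrb3 at 97.7 and 109 FPKM, Cox8b at 123 and 77.6 FPKM and Cidea at 52.3 and 19.7 FPKM. The part of these cell types in the values of the muscle genes was not tested.

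**Figure D4:**
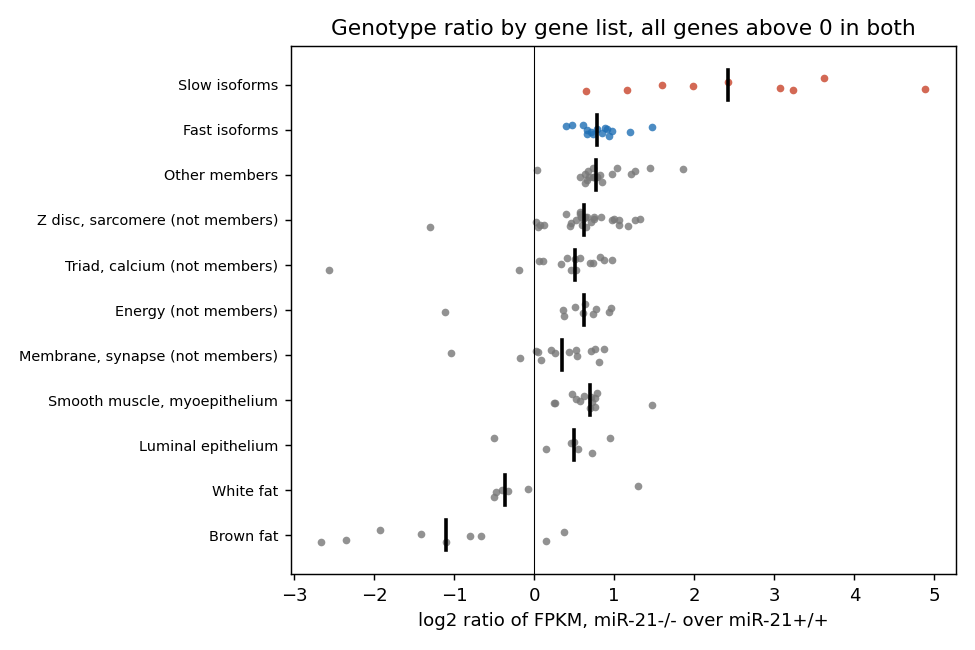
Log2 ratio of FPKM, miR-21-/- over miR-21+/+, for all genes of each list shown with values above 0 in both genotypes, 1 point per gene, with a black bar at the median and random vertical jitter. The regulator genes and the heart muscle genes are not shown. The 9 slow isoforms lie from 0.65 to 4.89, the 15 fast isoforms from 0.40 to 1.47, and the 9 brown fat markers from −2.66 to 0.37.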

How the data were processed

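The authors aligned single-end reads to mm9 with TopHat and estimated transcript abundance with Cufflinks. The labels also list CASAVA. Program versions and the gene annotation are not given in the sources used here. The deposited table gives 1 FPKM value per genotype for each of 30506 loci, per the file headers. Its columns of fold change, test statistic, p-value and q-value hold the authors' own comparison and were not used, apart from the status flag as an alternative. For a gene name on several rows the row with the highest mean FPKM was kept, and loci above 1 FPKM in the mean were summarised by counts and medians with no test. Locus starts count from 0, since 8295 annotated starts matched after adding 1 and 477 matched as printed, and are given counting from 1. Approximate reads used GENCODE transcripts of mm9 and exact binomial intervals (scipy 1.17.1). Members and lists were chosen with earlier results of these data known, and the estimate of reads was added after seeing the values. Named genes of other lists are those with the 3 highest means and, for muscle genes, those past 2-fold; others are named because a member's account turned on them. A gene that this rule names is not reported here. The summaries were run on simulated data with known ratios, without counting noise and without the minimum, which checks the arithmetic only. Python 3.11.15, numpy 2.4.6, pandas 2.3.3 and matplotlib 3.10.9 were used.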

Additional observations from a re-analysis of the deposited data

How the results depend on the processing

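No paired analysis was possible because both mice of a genotype share 1 FPKM value, and no mouse could be left out in turn for the same reason. A median was said to move when it differed by 0.1 or more on the log2 scale, and a count when it differed by over 1.5 times. Of 72 values computed under alternatives 52 stayed within these limits, 20 moved and 0 turned direction. A turn could be recorded for medians and their differences but not for counts, and single members were not judged in this way. The count of members at least 2-fold lower was 0 under every alternative and makes up 13 of the 52 values that stayed. As every member was higher as deposited, a change of fold limit or minimum could not alter this count. The count of members at least 2-fold higher, 10, was 2 with a mean above 5 FPKM and 3 with equal sums over all loci, and it was 34 at 1.5-fold, 37 at the lowest limit tried and 5 at 3-fold. The members' median was 0.16 with equal sums over all loci and 0.89 with equal sums over named loci, and the fast median was 0.15 under the former. The slow median over the 4 slow isoforms above 1 FPKM, 2.53, 3 of which passed only through their miR-21-/- value, was 1.44 with a pseudocount of 1, 2.32 with a pseudocount of 0.1, 2.43 without a minimum, 1.35 with equal sums over all loci and 2.08 with equal sums over named loci. The slow minus fast difference, 1.74 with the same 4 slow isoforms, was 0.67, 1.54, 1.64, 1.20 and 1.20 in the same order. Both scalings change which slow isoforms exceed 1 FPKM, and a pseudocount shrinks ratios of low values. With a mean above 5 FPKM no slow isoform was left, so no slow median could be computed. The pair difference of log2(slow/fast), 1.77, was 1.51 without merged loci and 1.51 with loci of status OK, each of which leaves out the heavy chain pair. The approximate reads, as few as 3 for a slow isoform in miR-21+/+ glands, limit the precision of the highest ratios.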
